A study of Mus musculus with 11 samples.

Results

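Chief cell secretory products and their regulator MIST1 were followed across the mouse (Mus musculus) corpus mucosa, the acid-secreting and enzyme-secreting part of the stomach, by bulk RNA sequencing. The 6 genes were listed by name and looked up by Ensembl identifier in the authors' table of estimated counts: pepsinogen C (Pgc), pepsinogen A (Pga5), gastric lipase (Lipf), acidic chitinase (Chia1), gastric intrinsic factor (Gif, newer symbol Cblif) and Bhlha15, which encodes MIST1. They are 6 of the 34866 genes in the table. Of them, 5 passed the filter on low counts that kept 14889 genes for testing, and Lipf did not, because it had no counts in any sample.

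The 11 samples fall into 4 labelled genotypes: wild type (2 controls), ATP4B-DTR (3 samples), GIF-DTR (3 samples) and GIF/ATP4B-DTR (3 samples), called the combined line below. The lines were made for selective ablation of parietal cells, which express Atp4b, and of chief cells, which express Gif in the mouse. DTR in such names usually stands for the diphtheria toxin receptor, which makes the cells that carry it sensitive to the toxin. The labels give no age, sex, toxin dose or time of collection, and do not say whether the controls received toxin or whether the GIF-DTR construct alters the Gif gene itself. Nothing states that the samples are separate animals, so the p-values measure the spread between these samples. Libraries held between 20.7 and 27.9 M counts (M, mega). Levels are given as CPM, counts per mega-count, after edgeR's TMM scaling (trimmed mean of M-values). A floor of 3 counts corresponds to 0.107 to 0.166 CPM. The Y-linked genes Ddx3y and Eif2s3y stood at 37.2 to 75.0 CPM in 6 samples (both controls, ATP4B-DTR sample 1 and all 3 samples of the combined line) and below the floor in the other 5, called samples without Y-linked expression. Uty and Kdm5d, whose counts were fractional in all 11 samples, stood at 0.621 to 3.31 CPM in those 5 and at 23.5 to 42.1 CPM in the rest. Thus genotype and Y-linked expression cannot be told apart in the comparisons of GIF-DTR with control and with the combined line.

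Chief cells lie at the base of corpus glands and store digestive proenzymes in large granules. Pepsinogens are cut to active pepsin by acid in the lumen, acidic chitinase breaks down chitin in food, gastric lipase splits dietary fat, and intrinsic factor carries vitamin B12 to its receptor in the ileum. MIST1 is a basic helix-loop-helix transcription factor that builds the secretory apparatus of such cells, and it is also made by pancreatic acinar cells and plasma cells.

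The genes lie on 4 chromosomes. On GRCm38 (mm10) with GENCODE M21 annotation, Pgc (ENSMUSG00000023987.14) occupies chr17:47726842-47734482, Chia1 (ENSMUSG00000062778.12) chr3:106113229-106132120 and Bhlha15 (ENSMUSG00000052271.7) chr5:144190286-144194441, all on the plus strand. Gif (ENSMUSG00000024682.3, chr19:11747554-11763447, plus strand), Pga5 (ENSMUSG00000024738.6, chr19:10668956-10678071, minus strand) and Lipf (ENSMUSG00000024768.5, chr19:33961187-33976810, plus strand) share chromosome 19. All 6 are protein-coding and none overlaps another annotated gene, so their reads are not shared with an overlapping gene. Summed exon length runs from 1388 bp (Pgc) to 3494 bp (Bhlha15).

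The 250 bases upstream of the RefSeq start site (GRCm38.p6) are shown for Pgc, Chia1 and Gif, the 3 members that passed the test described next, so that the stretch before each start can be read beside the values. All 3 are written 5′ to 3′ on the plus strand, and capitals mark TATAAA, the core of the TATA box. They span chr17:47726592-47726841 for Pgc, chr3:106113132-106113381 for Chia1 and chr19:11747309-11747558 for Gif.
Pgc: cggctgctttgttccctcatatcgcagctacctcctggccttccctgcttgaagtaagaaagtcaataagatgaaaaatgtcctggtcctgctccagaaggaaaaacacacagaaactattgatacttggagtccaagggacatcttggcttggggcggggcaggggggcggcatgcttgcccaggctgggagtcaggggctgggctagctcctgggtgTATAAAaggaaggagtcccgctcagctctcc
Chia1: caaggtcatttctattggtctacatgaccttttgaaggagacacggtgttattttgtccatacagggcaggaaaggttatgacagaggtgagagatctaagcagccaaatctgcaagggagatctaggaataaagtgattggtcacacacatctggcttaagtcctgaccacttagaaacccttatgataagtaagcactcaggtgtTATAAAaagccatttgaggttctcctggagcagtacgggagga
Gif: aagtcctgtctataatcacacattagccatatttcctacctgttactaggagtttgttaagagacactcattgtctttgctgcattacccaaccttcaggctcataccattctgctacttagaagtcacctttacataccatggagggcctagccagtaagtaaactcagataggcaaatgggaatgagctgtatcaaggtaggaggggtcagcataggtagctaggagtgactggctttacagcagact

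TATAAA lies at −31 to −26 from the start site in Pgc and at −43 to −38 in Chia1, and it is not among these letters upstream of Gif, Lipf or Bhlha15. The RefSeq start of Chia1 lies 153 bases downstream of the GENCODE gene start, while for Pgc both coincide. The same 6 letters occur on either strand in 12.4% of 32851 RefSeq promoters of this length. Of the E-box forms searched on both strands, CATATG, a form reported for MIST1 binding, and CAGCTG, neither occurs in the 5 windows examined. They occur in 3.46% and 13.0% of all promoters.

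All 5 detected members lay lower in the lines that carry GIF-DTR than in both controls. The zymogen Pgc, the chitinase Chia1 and intrinsic factor (Gif) fell there by an edgeR quasi-likelihood test fitted over all 11 samples, while Pga5 and Bhlha15 did not pass. A gene is said to pass, rise or fall where its Benjamini-Hochberg adjusted p over the 14889 genes tested is under 0.05, and log2 differences are given with their SE. Counted by comparison, 0 of the 5 tested members passed in ATP4B-DTR against control, where 21.6% of all genes tested passed (9.39% lower, 12.2% higher). In GIF-DTR 3 of 5 fell (Gif, Pgc and Chia1), beside 6.82% of all genes lower, 9.97% higher and 16.8% in either direction. In the combined line the same 3 of 5 fell, beside 15.4% of all genes lower, 18.2% higher and 33.6% in either direction. The median log2 difference of the 5 members was −1.85, −3.36 and −3.59 in the 3 lines, and that of all genes tested lay between −0.04 and −0.01. Without control 2 the ATP4B-DTR differences of the 5 members ran from −2.53 for Pga5 to 0.059 for Bhlha15. Every sample lay below both controls for 3 of 5 members in ATP4B-DTR, as for 23.2% of all genes, for 5 of 5 in GIF-DTR, as for 23% of all genes, and for 5 of 5 in the combined line, as for 27.2% of all genes. The comparisons share the same 2 controls, and the counts called change with the fit and the scaling, as given in the closing section.

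**Figure D1:**
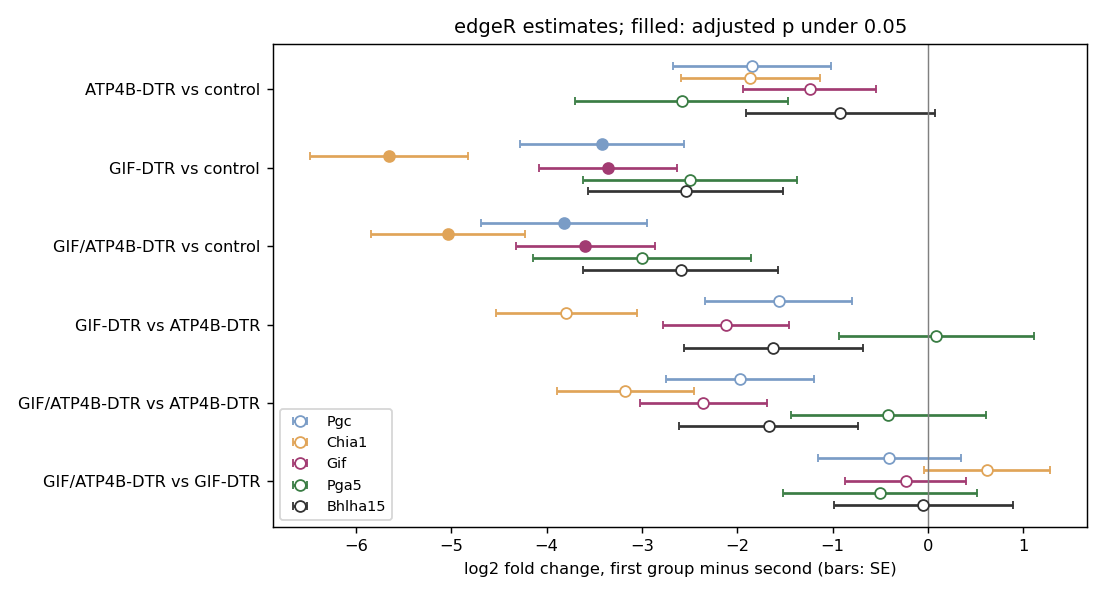
Log2 fold change (x axis, first group minus second) of the 5 tested genes in each pair of genotypes, with SE as bars, and filled points where the edgeR adjusted p is under 0.05. The filled points are Gif, Pgc and Chia1 in GIF-DTR and GIF/ATP4B-DTR against control, with Chia1 farthest to the left.

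Pepsinogen C, the main zymogen of the mouse chief cell, was the dominant product. Pgc stood at 70812 and 154891 CPM in control 1 and control 2, at 49436, 13978 and 30755 CPM in ATP4B-DTR, at 21640, 4620 and 5534 CPM in GIF-DTR, and at 2279, 10566 and 11167 CPM in the combined line. All 9 samples of the DTR lines lay below both controls, although the controls themselves differed 2.19-fold. Control 2, the higher one for each of the 5 detected members, also had more of the summed markers of smooth muscle (1707 against 277 CPM in control 1), macrophages (58.3 against 12.5 CPM), plasma cells (699 against 313 CPM) and endocrine cells (1201 against 588 CPM), and less of those of pit cells (80980 against 128600 CPM). Their part in the control levels was not tested. Per kilobase of exon Pgc ranked first of all genes in both controls and in ATP4B-DTR sample 1, and it still ranked 26 at its lowest, in sample 1 of the combined line. Pgc took 5.64% and 13.4% of all counts in the controls and 0.236% in that lowest sample. The widest 95% Wilson interval of a single gene's share of all counts spans 0.029 percentage points, which covers counting error only.

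Pgc fell in GIF-DTR by 3.41 ± 0.86 (SE) on the log2 scale against control (edgeR adjusted p = 0.0245) and in the combined line it fell by 3.82 ± 0.87 (adjusted p = 0.00762, edgeR). The ATP4B-DTR difference was −1.85 ± 0.83 and did not pass (adjusted p = 0.142, edgeR), and it was −1.18 without control 2. In a bulk sample, fewer chief cells and less Pgc RNA per chief cell cannot be told apart, and this holds for each gene below. Without control 2 the GIF-DTR and combined-line differences became −2.74 (adjusted p = 0.127, edgeR) and −3.15 (adjusted p = 0.057, edgeR). The GIF-DTR call was also lost without GIF-DTR sample 2 (−3.06, adjusted p = 0.066, edgeR), without GIF-DTR sample 3 (−3.12, adjusted p = 0.0833, edgeR), with no filter on low counts (−3.42, adjusted p = 0.0724, edgeR) and with an index of Y-linked genes as a covariate (−2.47, adjusted p = 0.358, edgeR).

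Pga5, the pepsinogen of group A, was a minor product with a different pattern across samples. It stood at 112 and 121 CPM in the controls, at 19.4, 20.1 and 19.0 CPM in ATP4B-DTR, at 53.3, 3.89 and 5.36 CPM in GIF-DTR, and at 2.46, 27.2 and 14.2 CPM in the combined line. The controls were nearly equal, 1.08-fold apart, and the ATP4B-DTR samples lay within 1.06-fold of each other, whereas the GIF-DTR samples spanned 13.7-fold and the samples of the combined line 11.1-fold. Every sample of the DTR lines lay below both controls. On a per-kilobase scale the control mean of Pga5 was 72.4 ± 3.99 (SD, n = 2) CPM per kb against 81310 ± 42830 for Pgc.

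On the log2 scale Pga5 differed from control by −2.58 ± 1.12 (ATP4B-DTR), −2.50 ± 1.12 (GIF-DTR) and −3.00 ± 1.14 (combined line), and none passed (edgeR adjusted p = 0.14, 0.168 and 0.0731). These p-values rest on a spread estimated over all 11 samples, to which the widely spread GIF-DTR and combined-line samples contribute. When the fit held only the groups compared, the ATP4B-DTR difference of −2.60 passed (edgeR adjusted p = 0.000334), and it passed without GIF-DTR sample 1 as well (adjusted p = 0.0347, edgeR). Without that sample the GIF-DTR difference was −4.66 (adjusted p = 0.0155, edgeR) and that of the combined line passed too, at −3.00 (adjusted p = 0.0138, edgeR).

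**Figure D2:**
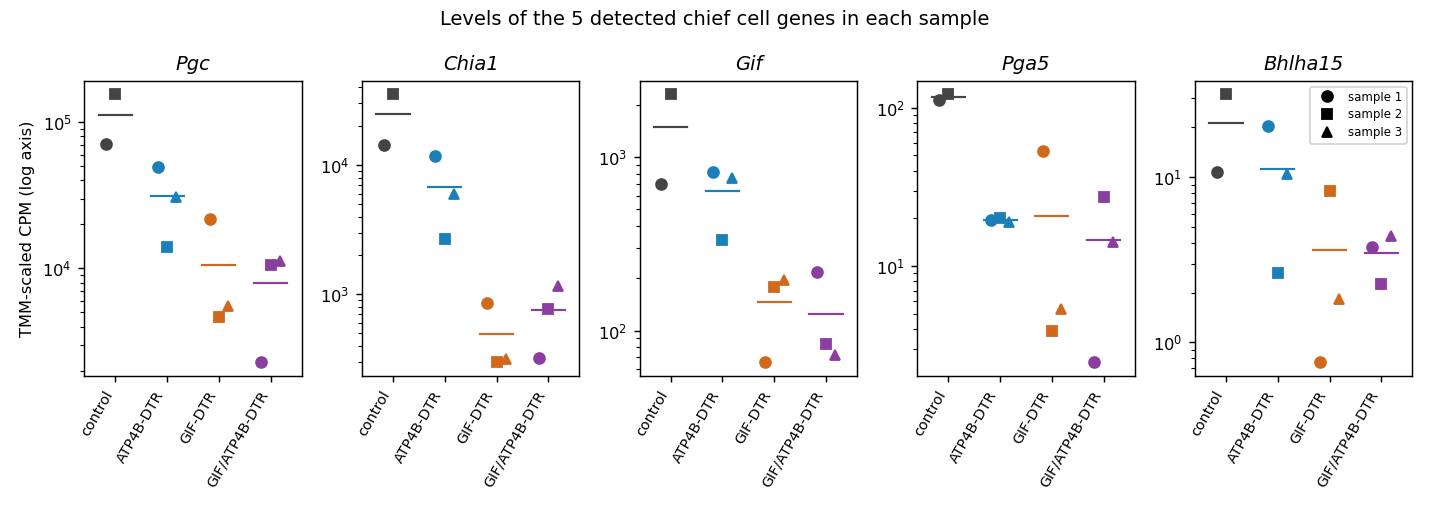
TMM-scaled CPM (log axis) of the 5 detected genes in each of the 11 samples, with genotypes on the x axis, sample numbers as marker shapes and group means as horizontal lines. Pgc, Chia1 and Pga5 of every DTR sample lie below both controls, while Gif and Bhlha15 of ATP4B-DTR overlap control 1.

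Lipf, the gastric lipase gene, had 0 counts in all 11 samples, below the floor of 3 counts, which corresponds to 0.107 to 0.166 CPM. In rodents the enzyme is best known as lingual lipase of the serous glands of the tongue. Among related acid lipases, Lipa, the lysosomal acid lipase, had 33.2 and 32.9 CPM in the controls and Lipo3 had 27.2 and 22.3 CPM. Neither passed the edgeR test against control in any line, and Lipo3 counts were fractional in all 11 samples, as happens where reads match several genes.

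Chia1, the acidic chitinase gene, differed most from control of the 5 tested members in the lines that carry GIF-DTR. In ATP4B-DTR Pga5 differed more (−2.58 against −1.86 on the log2 scale). Chia1 stood at 14258 and 35132 CPM in the controls, at 11715, 2672 and 6014 CPM in ATP4B-DTR, at 856, 299 and 318 CPM in GIF-DTR, and at 320, 775 and 1167 CPM in the combined line. All 6 samples of the lines that carry GIF-DTR lay below all 3 ATP4B-DTR samples, which in turn lay below both controls. By CPM per kilobase Chia1 ranked 16 and 6 in the controls, between 9 and 35 in ATP4B-DTR, between 83 and 249 in GIF-DTR, and between 71 and 263 in the combined line.

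Chia1 fell by 5.65 ± 0.83 on the log2 scale in GIF-DTR (edgeR adjusted p = 0.00309), 50.3-fold, and fell by 5.03 ± 0.81 in the combined line (edgeR adjusted p = 0.00136), 32.7-fold. The ATP4B-DTR difference, −1.86 ± 0.73, did not pass (edgeR adjusted p = 0.101), and it was −1.07 without control 2. GIF-DTR was lower than ATP4B-DTR by a difference of −3.79 ± 0.74, with an edgeR adjusted p of 0.0745, and did not pass. It passed in 3 of 21 alternative fits: with DESeq2 (adjusted p = 6.92e-05), with edgeR without robust moderation (adjusted p = 0.0452) and without sample 1 of the combined line (edgeR adjusted p = 0.0476), while in the other 18 the adjusted p reached up to 0.262. Against control, the Chia1 call in GIF-DTR was lost with an index of Y-linked genes as a covariate (−4.45, edgeR adjusted p = 0.0873). The calls in both lines held in every leave-one-out fit, with differences of −4.86 in GIF-DTR and −4.24 in the combined line when control 2 was left out.

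Among other chitinase-family genes, 3 of those listed were tested. Chit1, which encodes chitotriosidase, was at 10.96 and 4.55 CPM in the controls and at 1.51 to 9.31 CPM in the DTR lines. Chil4 spanned 0.0397 to 273 CPM, with 57.6, 273 and 0.580 CPM within ATP4B-DTR alone. Neither these 2 genes nor Chil1 passed the edgeR test in any line against control.

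Gif, the gene after which the GIF-DTR lines are named, stood at 702 and 2303 CPM in the controls, at 824, 332 and 755 CPM in ATP4B-DTR, at 65.5, 178 and 196 CPM in GIF-DTR, and at 218, 83.7 and 72.3 CPM in the combined line. The controls differed 3.28-fold, and 2 of the 3 ATP4B-DTR samples lay above control 1. All 6 samples of the lines that carry GIF-DTR lay below every ATP4B-DTR sample and both controls. Gif remained detected in each of them, with 1385 counts at its lowest.

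Gif fell by 3.36 ± 0.73 on the log2 scale in GIF-DTR (edgeR adjusted p = 0.0169) and fell by 3.59 ± 0.73 in the combined line (edgeR adjusted p = 0.00565). Its difference in ATP4B-DTR was −1.24 ± 0.70 (edgeR adjusted p = 0.245). Set against each control alone, the ATP4B-DTR mean of log2 CPM differed by −0.25 from control 1 and by −1.96 from control 2, while the GIF-DTR mean differed by −2.41 and −4.13. Without control 2 the GIF-DTR difference was −2.26 and no longer passed (adjusted p = 0.107, edgeR), and that of the combined line was −2.50 and did (adjusted p = 0.0485, edgeR).

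Some genes for the onward handling of vitamin B12 fell as well. Of 5 listed, 4 were tested, and 2 fell in each of the single lines, 3 in the combined line and none rose, with median log2 differences of −0.41, −0.395 and −0.68. Tcn2, the plasma carrier transcobalamin and a relative of intrinsic factor, was at 129 and 112 CPM in the controls and at 26.9 to 65.8 CPM in the DTR lines. It fell in ATP4B-DTR (−1.30 ± 0.19), GIF-DTR (−1.03 ± 0.19) and the combined line (−1.79 ± 0.19), with edgeR adjusted p = 0.00109, 0.0052 and 8.75e-05. Lmbrd1, a lysosomal cobalamin exporter, also fell, with differences of −0.71, −0.64 and −0.54 in the same order (edgeR adjusted p = 0.00295, 0.00746 and 0.0066). Cd320, the receptor for transcobalamin, fell in the combined line, by 0.82 ± 0.20 (edgeR adjusted p = 0.00911).

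By CPM per kilobase Bhlha15 was the scarcest detected member in each of the 11 samples. Its level, not scaled by length, stood at 10.7 and 31.7 CPM in the controls, at 20.5, 2.63 and 10.4 CPM in ATP4B-DTR, at 0.757, 8.22 and 1.83 CPM in GIF-DTR, and at 3.79, 2.27 and 4.42 CPM in the combined line. ATP4B-DTR overlapped the controls, and every sample of the other lines lay below both. The lowest value, in GIF-DTR sample 1, rests on 16.4 estimated counts, and the counts of 3 samples were fractional. On the log2 scale Bhlha15 differed from control by −0.92 ± 0.99 (ATP4B-DTR), −2.54 ± 1.02 (GIF-DTR) and −2.59 ± 1.02 (combined line), and none passed (edgeR adjusted p = 0.547, 0.127 and 0.0818). The combined-line difference passed in 6 of 21 alternative fits, among them DESeq2 (adjusted p = 0.0393) and the fit limited to the groups compared (edgeR adjusted p = 0.0148). In ATP4B-DTR the difference was 0.059 without control 2. In GIF-DTR it was −1.56 without control 2 and −1.10 with an index of Y-linked genes as a covariate, and without GIF-DTR sample 2 it was −4.01 and passed (edgeR adjusted p = 0.0404), the only one of 20 alternative fits in which it did.

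Plasma cells also make MIST1, and their markers also differed between the genotypes. The summed level of 9 plasma cell genes was 313 and 699 CPM in the controls, 155 to 170 CPM in ATP4B-DTR, 184 to 254 CPM in GIF-DTR and 216 to 260 CPM in the combined line. Of the 9 genes 0 to 3 were at 0 in a sample, and Sdc1, which epithelium also expresses, held 275 and 194 CPM of the sum in the controls and 152 to 258 CPM in the DTR lines. Igha, the IgA heavy chain, stood at 16.6 and 278 CPM in the controls, at 0.791 CPM or less in ATP4B-DTR, and at 14.9 CPM or less in the other lines. In ATP4B-DTR 5 of the 6 plasma cell genes tested fell, against 1 in GIF-DTR and 4 in the combined line. The share of all genes that fell was 9.39%, 6.82% and 15.4%. Median log2 differences of the 6 genes were −4.51, −3.75 and −4.83, while Mzb1 did not exceed 0.832 CPM in any sample. Pou2af1, a B-lineage coactivator, lay the other way, at 0.539 and 1.11 CPM in the controls and 1.23 to 5.12 CPM in the DTR lines, and did not pass in any line (smallest edgeR adjusted p = 0.0506). Pancreatic acinar genes summed to 31.96 to 85.5 CPM, with 0 to 5 of the 11 listed genes at 0 in a sample. ATP4B-DTR sample 2, which had the lowest Bhlha15, Pgc, Chia1 and Gif of its group, stood apart in 7 of these acinar genes. Ctrb1, Cela2a, Cela3b, Pnlip, Cpa1, Cpb1 and Prss2, all digestive enzyme genes, ran from 1.27 to 5.93 CPM there. They did not exceed 0.943 CPM in any other sample. Without that sample the ATP4B-DTR differences from control were −0.45 for Bhlha15, −1.49 for Pgc, −1.48 for Chia1, −0.93 for Gif and −2.61 for Pga5. The part of either cell type in the Bhlha15 values was not tested.

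Genes linked to MIST1 in secretory cells changed in part. Of 7 listed, 6 were tested and none rose. In ATP4B-DTR 1 fell, against 2 in GIF-DTR and 3 in the combined line, beside 9.39%, 6.82% and 15.4% of all genes. The median log2 differences were −0.17, −0.295 and −0.25. Copz2, a coatomer subunit of vesicle transport, was at 9.03 and 16.8 CPM in the controls and at 1.37 to 8.05 CPM in the DTR lines, and fell in GIF-DTR (−1.73 ± 0.52) and in the combined line (−2.58 ± 0.53), with edgeR adjusted p = 0.0421 and 0.0036. Ccpg1, an endoplasmic reticulum autophagy receptor, fell in all 3 lines, with log2 differences of −1.69, −1.34 and −1.98 (edgeR adjusted p = 0.000336, 0.00182 and 5.28e-05), with fractional counts in every sample. Xbp1, the transcription factor that acts upstream of MIST1, was at 360 and 346 CPM in the controls and at 234 to 306 CPM in the DTR lines, and fell in the combined line by 0.50 ± 0.13 (edgeR adjusted p = 0.0103). Rab3d, a small GTPase of the granule membrane, did not pass in any line, with 218 to 340 CPM across the 11 samples.

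Granule release genes changed in part as well. Of 9 listed, 8 were tested. None rose, and 3 fell in both ATP4B-DTR and the combined line and 1 in GIF-DTR. In the same order the medians were −0.12, −0.12 and 0.03, and 9.39%, 15.4% and 6.82% of all genes fell. Syt7, a calcium sensor of exocytosis, fell in each line, with log2 differences of −1.77 ± 0.26, −1.82 ± 0.26 and −2.45 ± 0.27 (edgeR adjusted p = 0.00148, 0.00227 and 0.000128), from 71.3 and 84.6 CPM in the controls to 13.3 to 33.7 CPM. Sycn, a zymogen granule protein, fell in ATP4B-DTR and the combined line, with differences of −1.60 ± 0.39 and −2.78 ± 0.40 (edgeR adjusted p = 0.0141 and 0.00051), and stood at 3.97 to 5.99 CPM in GIF-DTR against 5.39 and 3.33 CPM in the controls.

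Other genes reported in chief cells did not form one pattern. Of 6 listed and tested, none passed in ATP4B-DTR, and the same number, 2, fell in GIF-DTR and in the combined line. Median log2 differences were 0.02, −0.41 and −0.57 in the 3 lines, where 9.39%, 6.82% and 15.4% of all genes fell. Clps, the lipase cofactor colipase, fell with differences of −4.19 ± 0.99 and −3.43 ± 0.97 (edgeR adjusted p = 0.0218 and 0.0229). Cdkn1c, the cell cycle inhibitor p57, fell with differences of −1.67 ± 0.40 and −2.10 ± 0.40 (edgeR adjusted p = 0.0181 and 0.00256). Tnfrsf19, named after its values were seen, lay on the other side, at 2.33 and 6.76 CPM in the controls and 8.61 to 49.5 CPM in the DTR lines, with differences of 2.14, 2.79 and 2.13 that did not pass (edgeR adjusted p = 0.12, 0.0678 and 0.0941).

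Y-linked expression differed along with the GIF-DTR contrast. With an index of Y-linked genes as a covariate, the GIF-DTR differences were −2.87 for Gif, −2.47 for Pgc and −4.45 for Chia1, and none passed (edgeR adjusted p = 0.245, 0.358 and 0.0873). Only ATP4B-DTR held samples with and without Y-linked expression. The covariate thus rested mainly on its sample 1 against samples 2 and 3, and cannot separate genotype from Y-linked expression in GIF-DTR. The combined line could be set against control among Y-expressing samples only. There Gif, Pgc and Chia1 differed by −3.59, −3.82 and −5.03 and passed (edgeR adjusted p = 0.0278, 0.0107 and 0.00314).

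Between the DTR lines no member passed the edgeR test, while DESeq2 called Chia1 in GIF-DTR and both Gif and Chia1 in the combined line, each against ATP4B-DTR. Against ATP4B-DTR, the GIF-DTR differences were −2.12 ± 0.66 for Gif, −1.57 ± 0.77 for Pgc, 0.09 ± 1.02 for Pga5 and −1.62 ± 0.94 for Bhlha15 (edgeR adjusted p = 0.294, 0.558, 0.988 and 0.644), in a comparison that called 0.49% of all genes. The groups did not overlap for Gif and Chia1, 2 of 5 members, as was so in this direction for 7.62% of all genes. Among the samples without Y-linked expression alone, Chia1 differed by −3.16 and Gif by −1.91 (edgeR adjusted p = 0.202 and 0.445). The combined line against ATP4B-DTR gave −2.35 ± 0.67 for Gif, −1.97 ± 0.78 for Pgc and −3.17 ± 0.72 for Chia1 (edgeR adjusted p = 0.253, 0.407 and 0.155). That comparison called 0% of all genes by edgeR, with 1554 at an unadjusted p under 0.05, and 277 by DESeq2, Gif and Chia1 among them (DESeq2 adjusted p = 0.0256 and 0.00334). For Gif, Pgc and Chia1 every sample of the combined line lay below every ATP4B-DTR sample, as for 8.12% of all genes.

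The combined line and GIF-DTR overlapped for all 5 members, as for all but 26.4% of the genes tested. Every sample of the combined line and no GIF-DTR sample had Y-linked expression, so genotype and Y-linked expression cannot be told apart here. The differences were 0.62 ± 0.66 for Chia1, −0.23 ± 0.64 for Gif, −0.41 ± 0.75 for Pgc, −0.50 ± 1.02 for Pga5 and −0.05 ± 0.94 for Bhlha15 on the log2 scale, and none passed (smallest edgeR adjusted p = 0.635), where 2.53% of all genes passed. Whether GIF-DTR went with a different change in the ATP4B-DTR background than in wild type was tested as an interaction. The interaction takes in the GIF-DTR difference from control, so it carries the same imbalance in Y-linked expression. All 5 estimates were positive, from 0.87 ± 1.37 for Bhlha15 to 2.48 ± 0.99 for Chia1, meaning a smaller drop in the ATP4B-DTR background, and none passed (edgeR adjusted p = 0.831 and 0.265 for those genes), where 0.651% of all genes passed. Without control 2 the estimates were −0.091 for Gif and −0.11 for Bhlha15, and with the Y-linked covariate they were −0.063 for Pgc and −1.41 for Bhlha15. The Chia1 estimate lay between 0.588 and 3.15 over 19 alternative fits.

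The secreted products together took 6.84% and 16.6% of all counts in the controls, 6.44%, 1.61% and 4.15% in ATP4B-DTR, 2.26%, 0.549% and 0.676% in GIF-DTR, and 0.292%, 1.19% and 1.28% in the combined line. ATP4B-DTR sample 1 came close to control 1, and no sample of any DTR line reached control 1. The widest 95% Wilson interval of these summed shares spans 0.032 percentage points. Leaving mitochondrial protein genes out of the total gave 7.55% and 18.2% in the controls and 0.308% to 6.83% in the DTR lines.

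The make-up of that sum is a ratio within a library and does not depend on scaling. Chia1 made up 16.6% and 18.3% of it in the controls and 18.9%, 15.7% and 16.0% in ATP4B-DTR. In GIF-DTR it made up 3.78%, 5.86% and 5.25%, and in the combined line 11.4%, 6.77% and 9.40%, with 95% Wilson intervals at most 0.47 percentage points wide. The share of Chia1 thus stayed within 15.7% to 18.9% in the 5 samples without GIF-DTR, over a range of the sum from 1.61% to 16.6% of counts, and was lower in each of the 6 samples with it. The log2 difference of Chia1 from Pgc lay between −2.39 and −2.08 in the samples without GIF-DTR and between −4.66 and −2.83 in those with it.

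**Figure D3:**
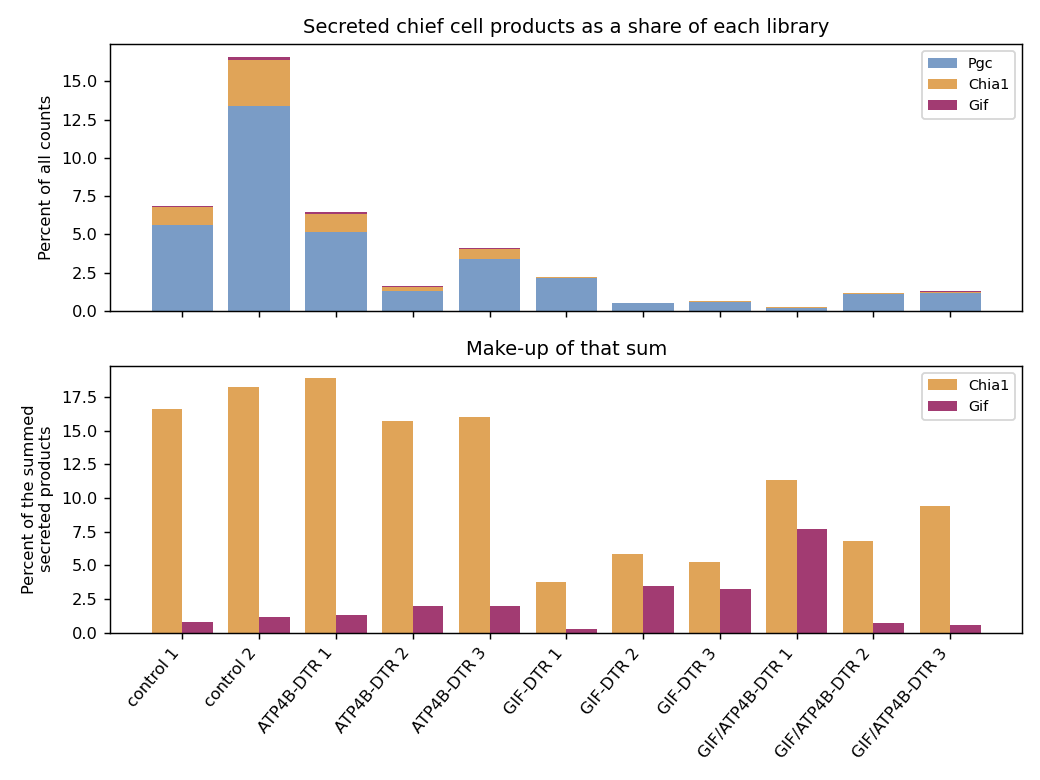
Upper bars give Pgc, Chia1 and Gif counts as a percent of all counts in each of the 11 samples, stacked; lower bars give Chia1 and Gif as a percent of the summed secreted products. The sum spans 0.292% to 16.6% of counts, and the Chia1 share of it is 15.7% or more in control and ATP4B-DTR and 11.4% or less in the other lines.

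Within the lines that carry GIF-DTR, the sample that stood apart in the other products stood apart in the opposite direction in Gif. GIF-DTR sample 1 had the highest Pgc, Pga5 and Chia1 of its group and the lowest Gif and Bhlha15. Sample 1 of the combined line had the lowest Pgc, Pga5 and Chia1 of its group and the highest Gif, with Bhlha15 between the other samples of its group. Gif counts came to 7.66%, 59.6% and 61.6% of Chia1 counts in GIF-DTR and to 68.0%, 10.8% and 6.19% in the combined line, against 4.93% to 12.6% in the other 5 samples. GIF-DTR sample 1 also had the highest summed smooth muscle markers of all samples, 2015 CPM against 531 and 328 CPM in the rest of its group, and the highest share of mitochondrial protein counts, 10.8%. Sample 1 of the combined line had the lowest smooth muscle sum, 168 CPM. The part of tissue make-up in these patterns was not tested.

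Across the 11 samples the log2 levels of Pgc and Chia1 were correlated with r = 0.95 and those of Pgc and Pga5 with r = 0.90. After each genotype's mean was subtracted, r was 0.96 and 0.83. Gif and Bhlha15 were correlated with r = 0.84, and 0.71 after that subtraction. Gif and Pgc had r = 0.69 over all samples and −0.30 within genotypes, and Gif and Pga5 0.39 and −0.70. These coefficients describe 11 libraries that share genotype and scaling, 4 groups of 2 or 3 each.

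**Figure D4:**
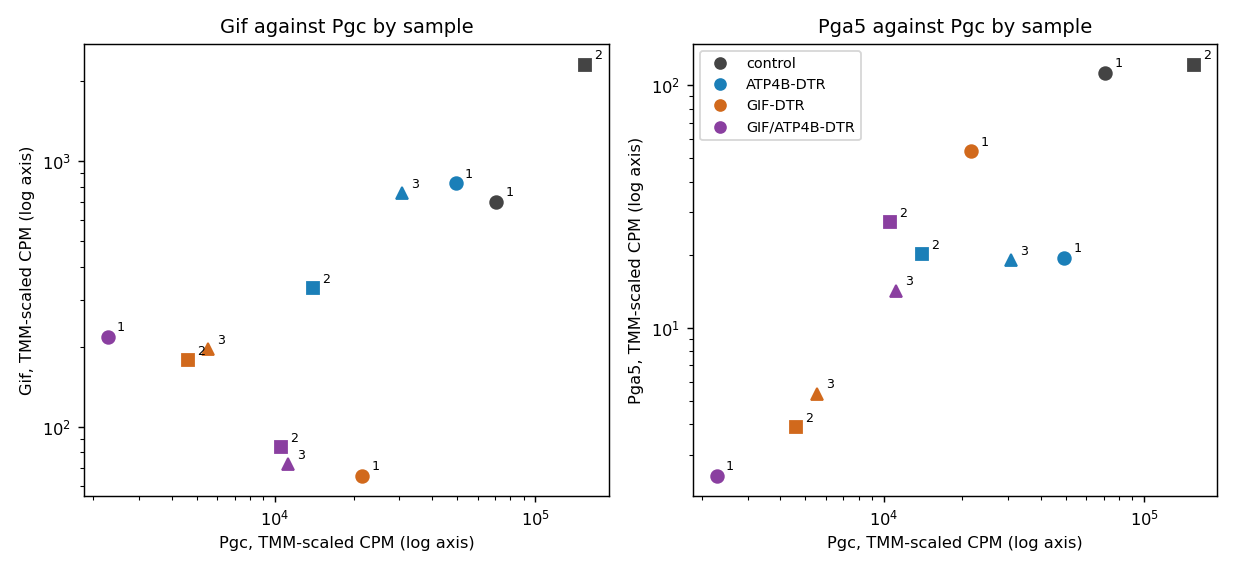
Gif (left) and Pga5 (right) against Pgc in each of the 11 samples, in TMM-scaled CPM on log axes, with genotypes as colours and sample numbers beside the points. The GIF-DTR sample with the most Pgc has the lowest Gif and the highest Pga5 of its group, the GIF/ATP4B-DTR sample with the least Pgc has the highest Gif and the lowest Pga5, and the 3 ATP4B-DTR samples lie within 1.06-fold in Pga5.

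The genes nearest to each member were found by Pearson r of log2 CPM over the 11 samples among 12220 genes with a mean of at least 1 CPM. For Pgc they were Pycr1, an enzyme of proline synthesis (r = 0.985), Copz2 (0.965) and Pla2g1b, a secreted phospholipase A2 (0.963). For Chia1 they were Tmed6, a protein of the early secretory pathway (0.986), Pla2g1b (0.977) and Try10, a trypsin (0.971). Pla2g1b stood at 7263 and 16710 CPM in the controls, at 1483 to 6013 CPM in ATP4B-DTR, at 131 to 897 CPM in GIF-DTR and at 133 to 1287 CPM in the combined line, with the same sample lowest in ATP4B-DTR as for Chia1 and the same samples highest in the other lines.

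For Gif the nearest genes were Furin, a proprotein convertase (r = 0.942), Jmy, an actin nucleator (0.936) and Map9, a microtubule-associated protein (0.927). Furin stood at 601 and 1017 CPM in the controls, at 193 to 338 CPM in ATP4B-DTR, at 87.8 to 103 CPM in GIF-DTR and at 52.6 to 93.7 CPM in the combined line. Furin and Gif were both highest in sample 1 of the combined line, but in GIF-DTR the lowest sample was 2 for Furin and 1 for Gif, and in ATP4B-DTR the highest was 3 for Furin and 1 for Gif. For Pga5 they were Mcfd2, a partner of an export receptor of the endoplasmic reticulum (0.929), Padi2, a peptidylarginine deiminase (0.927) and Gnl3l, a nucleolar GTPase (0.909). For Bhlha15 they were Dhx57 (0.933), Rpap2 (0.893) and Serac1 (0.886). Left without the 2 samples farthest from the median, the coefficients of these 15 pairs lay between 0.743 and 0.978. By Spearman's rho 6 of the 15 were again among the 3 nearest genes and 9 were not, among them all 3 of Gif.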

How the data were processed

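Corpus mucosa of 11 samples was sequenced from poly(A) RNA with a stranded kit, per the labels' protocols, and the authors deposited 1 table of each gene's estimated counts. That unit was read from the values, since 30.7% of nonzero entries are fractional; the build is mm10, per the submitters' processing notes, and the aligner and quantifier are not given in the sources used here. Identifiers were matched to symbols for 34582 of 34866 rows, and the number of unused columns was 0. Counts were rounded and fitted with edgeR 4.0.16 (R 4.3.3): filterByExpr, TMM scaling, quasi-likelihood F test with robust moderation, 1 coefficient per genotype over all 11 samples, Benjamini-Hochberg adjustment over 14889 genes and a threshold of 0.05. CPM per kilobase used summed exon length from GENCODE M21, and upstream sequences came from RefSeq (GRCm38.p6), which matched 5 of the 6 members and not Pga5.

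Alternatives were DESeq2 1.42.0, other scalings and filters, no robust moderation, only the groups compared, a Y-linked covariate or subset, and leaving out each sample; replicate numbers of the lines are accession order and pair nothing. All 6 members were described, and from each list at most 4 called genes of at least 1 CPM were named per comparison, with the 3 nearest genes of each member; a few genes outside this rule were chosen after their values were seen. Members and lists were chosen with earlier results of these data known. The scripts were tested on simulated data. Lists of pit, endocrine, neck, metaplasia, squamous, antral, macrophage and proliferation genes were also counted (closing section).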

Additional observations from a re-analysis of the deposited data

How the results depend on the processing

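Members called against control numbered 0 in ATP4B-DTR and 3 in GIF-DTR and GIF/ATP4B-DTR. For ATP4B-DTR the number was 1 with only the groups compared, and 0 to 1 when a sample was left out. For GIF-DTR it was 0 with the Y-linked covariate and 1 to 4 when a sample was left out, with 1 without control 2. For GIF/ATP4B-DTR it was 5 with scaling that left out the members and the 50 most abundant genes, 5 with DESeq2, 5 without robust moderation, and 2 to 4 when a sample was left out. For GIF-DTR against ATP4B-DTR it was 1 with DESeq2, 1 without robust moderation and 0 to 1 when a sample was left out; for GIF/ATP4B-DTR against ATP4B-DTR it was 2 with DESeq2. The fits that called 5 members in GIF/ATP4B-DTR called 6155, 5728 and 5023 of all genes, in the order given, against 5005 in the main fit. Over all single-gene fits and alternatives, 662 log2 differences kept direction and side of the threshold, 9 lost a call, 19 gained one and 15 changed sign; the cause was not tested.

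Signs changed for some differences, none of which had passed. Leaving out a sample gave −1.71 to 0.059 for Bhlha15 in ATP4B-DTR against control, −2.07 to 0.58 for Pga5 in GIF-DTR against ATP4B-DTR and −1.22 to 0.085 for Pga5 in GIF/ATP4B-DTR against ATP4B-DTR. In GIF/ATP4B-DTR against GIF-DTR it gave −0.91 to 0.041 for Gif, −0.76 to 0.66 for Pgc, −1.31 to 1.66 for Pga5 and −0.52 to 1.42 for Bhlha15, and Chia1 was −0.67 with the Y-linked covariate. For the interaction it gave −0.091 to 1.62 for Gif and −0.11 to 2.34 for Bhlha15, and with the covariate Pgc was −0.063 and Bhlha15 −1.41.

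Counts of all genes called moved as well. Against control, ATP4B-DTR had 3211 (2012 with the covariate, 1315 to 3329 leaving out a sample), GIF-DTR 2500 (4163 by total counts, 4170 without the top genes, 491 with the covariate, 871 to 2629) and GIF/ATP4B-DTR 5005 (2874 to 5042, lowest without control 2). GIF-DTR against ATP4B-DTR had 73 (383 with DESeq2, 22 with the covariate, 30 without Y-expressing samples, 17 to 140), GIF/ATP4B-DTR against ATP4B-DTR 0 (277 with DESeq2, 57 unfiltered, 5 without the top genes, 1 with only the groups compared and with the covariate, 0 to 43), GIF/ATP4B-DTR against GIF-DTR 376 (980 with DESeq2, 15 with the covariate, 160 to 393) and the interaction 97 (5 with the covariate to 1003 by total counts, 0 to 277).

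Scaling by total counts shifted the median of all genes against control by 0.31 to 0.36 on the log2 scale, and scaling without the top genes by −0.35 to −0.29. The share of calls that were higher was then 86.7% and 21.5% in ATP4B-DTR (main 56.5%), 92.8% and 17.6% in GIF-DTR (59.4%) and 80.2% and 23.4% in GIF/ATP4B-DTR (54.2%). All 5 tested members were lower than control in the 3 lines under each scaling. With 2 controls that differed over 2-fold in 15.1% of genes, and 4 of 5 members among them, fold sizes are less certain than directions. No paired analysis was possible because the replicate numbers of the lines follow accession order.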

Other observations

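Beside the chief cell genes, the counts for other glandular lists were as follows. Of 8 parietal cell genes tested, in ATP4B-DTR 4 fell, against 3 in GIF-DTR and 6 in the combined GIF/ATP4B-DTR line against control, and none rose (edgeR, adjusted p under 0.05). Of 4 proliferation genes, all 4 rose in each line. Of 8 genes of spasmolytic polypeptide-expressing metaplasia, 4 rose in each line and none fell. Of 6 mucous neck genes, 3 rose and 1 fell in ATP4B-DTR, and 2 rose and 1 fell in GIF-DTR and in the combined line. Of 5 pit cell genes, 0 passed in ATP4B-DTR and GIF-DTR and 1 fell in the combined line. Of 5 endocrine genes, 1 rose in ATP4B-DTR and in the combined line. None of 5 macrophage or 5 smooth muscle genes passed in any line.

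Of 11 pancreatic acinar genes 7 were tested, and 1 rose in ATP4B-DTR, 1 fell in GIF-DTR and 2 fell in the combined line. Cela1, an elastase, rose by 0.94 ± 0.30 on the log2 scale in ATP4B-DTR (edgeR adjusted p = 0.0492). Amy2a1, a pancreatic amylase, fell in GIF-DTR (−4.12 ± 1.06) and in the combined line (−4.44 ± 1.08), with edgeR adjusted p = 0.0262 and 0.00981. It stood at 1.66 and 14.9 CPM in the controls, which lie far apart, and at 0.855 CPM or less in both lines, and its counts were fractional in 10 samples. Of 17 relatives of the members' proteins 13 were tested: Tcn2 fell in each line, the lysosomal protease gene Ctsd fell in the combined line by 0.60 ± 0.19 (edgeR adjusted p = 0.03, counts fractional in 10 samples), and Lipn, at 0.470 CPM or less in every sample, rose there. Ctse, cathepsin E, was at 4159 and 2768 CPM in the controls and at 1533 to 2504 CPM in the DTR lines, and did not pass in any of them. Of 2 antral genes 1 rose in GIF-DTR and in the combined line, and of 6 forestomach genes the 1 tested rose in ATP4B-DTR.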
